A study of Mus musculus with 3 samples.

Results

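The 10 genes described here encode the main cytosolic and mitochondrial heat shock chaperones and their transcription factor, and they were chosen by name from 37646 genes counted in 3 lymphoma libraries. They were Hspa1a and Hspa1b (inducible HSP70), Dnajb1 (an HSP40 partner of HSP70), Hsph1 (HSP110), Hsp90aa1 (inducible HSP90), Hspa8 (constitutive HSP70, HSC70), Hsp90ab1 (constitutive HSP90), Hspd1 and Hspe1 (the mitochondrial chaperonin HSP60 and its partner HSP10) and Hsf1. For the text they were sorted by textbook knowledge into 5 inducible genes (Hspa1a, Hspa1b, Dnajb1, Hsph1 and Hsp90aa1), 4 constitutive genes (Hspa8, Hsp90ab1, Hspd1 and Hspe1) and the factor Hsf1. Several of the genes respond to stress to differing degrees, so the classes are a convention. The set was picked because Hspa1a and Hspa1b were nearly absent in 1 tumour, so the difference of that tumour in these genes is described below and not tested.

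Chaperones bind unfolded or partly folded proteins and let them fold, be transported or be degraded. HSP70 works in cycles of ATP hydrolysis that J domain proteins such as DNAJB1 start and that nucleotide exchange factors such as HSP110 end, and HSP90 acts later on kinases, steroid receptors and other clients. In unstressed cells HSF1 is held inactive by chaperones. When unfolded proteins accumulate, it trimerises and binds heat shock elements, inverted repeats of GAA, in the promoters of inducible genes, among which the HSP70 genes respond strongly. Constitutive chaperones such as HSC70 and HSP90 beta are abundant in dividing lymphoid cells.

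The RNA came from B220+GFP+ cells sorted from the spleens of moribund pBIC2 mice on the C57BL/6 strain. These mice carry floxed p53 and Blimp1 alleles (p53F/F, Blimp1F/F), an active IKK2 allele behind a floxed stop cassette (IKK2castopF/stopF), Cre at the Cγ1 locus (Cg1Cre/+) and a human BCL2 transgene under the Eµ enhancer (Eµ-hBCL2tg/+), and the labels call the disease an ABC type of diffuse large B cell lymphoma. All 3 libraries share this genotype and form 1 group, and ages are not given in the labels. They are named tumours 1, 2 and 3 in accession order. Cells were taken from disaggregated spleen after red cell lysis, stained, sorted without 7AAD-positive dead cells and lysed in TRIzol, so the RNA reflects cells after these steps. Germinal centre B cells, named in the design as controls, were not analysed here. Each tumour has 1 library, and nothing in the labels states that they came from separate mice, so a difference between tumours has no replicate check and the intervals given cover counting error only.

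The libraries held 15576975, 16477997 and 17014022 gene counts. All 10 B cell markers were present in every tumour, and their summed level was 25639, 24859 and 20202 CPM (counts scaled to library size by TMM, as are all CPM values here). A few sets of other cells moved between the tumours. The 11 T cell markers summed to 87.6, 66.1 and 823 CPM in tumours 1, 2 and 3, and Cd5, which some B cells also express, made up 81.2 CPM of the sum in tumour 1, where Cd3e had no count. Of the 11, 9 were at least 2-fold lower in tumour 1 than in both others. Only 4 of the 11 passed the filter on low counts used below. Of these 4, 3 were lower in this way, beside 5.48% of all genes that passed it. The 10 macrophage and monocyte markers summed to 35.6, 403 and 183 CPM, most of it Cd68 (24.5, 322 and 165 CPM), and the 9 neutrophil markers to 0.197, 16.9 and 43.8 CPM, with 8 of 9 at 0 in tumour 1. The 7 stroma and endothelium markers (10.03, 2.67 and 4.37 CPM; Dcn at 0 in all) and the 6 erythroid markers (8.78, 19.9 and 10.9 CPM) were low throughout. In sorted bulk RNA, fewer cells of a type and less RNA per cell cannot be told apart.

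Hspa1a and Hspa1b lie 9951 bases apart in the MHC class III region of chromosome 17, in the same orientation, and each is a single exon (Hspa1a, ENSMUSG00000091971.3, 34969190 to 34972156; Hspa1b, ENSMUSG00000090877.3, 34956436 to 34959238; mm10, GENCODE M21, both on the minus strand). They are near copies. Their coding sequences were identical at 1916 of 1926 aligned bases (99.5%), with 7 mismatches and a gap of 3 bases. Their promoters are shown because they too are nearly the same over the stretch compared. In the 250 bases before the RefSeq start they differed at 3 positions, written with the Hspa1a base first and counted from the first printed base: C44T, T47C and T249G. The RefSeq windows (GRCm38.p6) of other inducible and constitutive members follow for comparison. Capitals mark each match to GAANNTTC or TTCNNGAA, the inverted GAA repeat of a heat shock element. Either motif reads the same on both strands, and neighbouring matches overlap by 3 bases.

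Hspa1a, chr17:34972157-34972406, minus strand: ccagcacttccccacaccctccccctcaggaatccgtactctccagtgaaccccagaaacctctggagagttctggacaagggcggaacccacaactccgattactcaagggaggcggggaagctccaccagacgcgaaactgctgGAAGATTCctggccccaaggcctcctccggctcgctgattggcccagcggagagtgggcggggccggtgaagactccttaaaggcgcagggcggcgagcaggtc
Hspa1b, chr17:34959239-34959488, minus strand: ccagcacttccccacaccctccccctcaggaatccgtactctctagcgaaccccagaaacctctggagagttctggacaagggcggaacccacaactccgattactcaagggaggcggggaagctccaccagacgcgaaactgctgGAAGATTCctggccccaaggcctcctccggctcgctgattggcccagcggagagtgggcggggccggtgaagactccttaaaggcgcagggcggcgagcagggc
Hsph1, chr5:149636337-149636586, minus strand: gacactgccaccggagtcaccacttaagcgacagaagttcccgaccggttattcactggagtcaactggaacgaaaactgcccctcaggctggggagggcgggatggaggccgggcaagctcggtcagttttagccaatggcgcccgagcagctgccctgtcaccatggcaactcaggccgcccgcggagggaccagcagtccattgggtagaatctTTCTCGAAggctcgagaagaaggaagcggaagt
Dnajb1, chr8:83607925-83608174, plus strand: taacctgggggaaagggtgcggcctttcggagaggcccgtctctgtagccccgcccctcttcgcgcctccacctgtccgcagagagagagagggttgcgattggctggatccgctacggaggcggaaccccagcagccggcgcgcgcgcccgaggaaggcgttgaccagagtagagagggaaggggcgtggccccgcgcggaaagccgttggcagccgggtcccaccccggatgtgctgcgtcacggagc
Hspe1, chr1:55087898-55088147, plus strand: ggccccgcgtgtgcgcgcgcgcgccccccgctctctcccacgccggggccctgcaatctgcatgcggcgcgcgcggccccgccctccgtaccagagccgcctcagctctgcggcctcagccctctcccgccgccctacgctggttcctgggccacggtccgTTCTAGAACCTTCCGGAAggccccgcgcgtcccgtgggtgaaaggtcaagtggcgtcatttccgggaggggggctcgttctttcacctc

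Hspa1a and Hspa1b each held 1 match, GAAGATTC, at the same place, beginning at position -104 from the start. None of the 3 differing bases lay in it. The Hsph1 window held 1 match, TTCTCGAA. Hspd1 and Hspe1 are transcribed in opposite directions from neighbouring starts, and their windows overlap. Both held the same 3 overlapping matches, which form a longer element, while a further Hspd1 window, from another RefSeq start, held none. Neither Dnajb1 window held any, and the other Hsph1 window held the same match. Of 32851 RefSeq promoter windows of the same length, 12.8% held at least 1 of the motifs, 0.466% held at least 2 overlapping matches, as the Hspe1 window does, and 0.140% held 3 or more matches. Windows were found for 6 of the 10 genes. A match is a string of letters and not a measured binding site, and elements farther upstream or with other spacing were not searched.

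Both inducible HSP70 genes were low in tumour 1 and expressed in the others. Hspa1a had 1 count in tumour 1 (exact 95% Poisson interval 0.0253 to 5.57 counts), 1044 in tumour 2 and 1175 in tumour 3, which is 0.0656, 63.4 and 67.6 CPM. Hspa1b had 114, 2958 and 2743 counts, or 7.47, 179.7 and 158 CPM. Tumours 2 and 3 lay close together for both genes, and tumour 1 lay far below them. The level of Hspa1b in tumour 2 was 24.04 times that in tumour 1 (exact 95% interval 19.9 to 29.2), and the level in tumour 3 was 21.1 times that in tumour 1 (17.5 to 25.7). For Hspa1a the single count left the ratio imprecise, at 967 (173 to 38245) for tumour 2 over tumour 1. The sum of both genes, which does not depend on how counted reads were divided between them, was 7.54, 243 and 225 CPM. This is a fold of 32.2 (26.8 to 39.2) for tumour 2 and 29.9 (24.8 to 36.3) for tumour 3 over tumour 1. If reads that fit both genes were not counted, they are missing from the sum. The T cell markers summed to 87.6, 66.1 and 823 CPM in tumours 1, 2 and 3, most of it Cd5 in tumour 1. The summed macrophage and neutrophil markers were higher in tumours 2 and 3 than in tumour 1, the macrophage sum mostly through Cd68 in both. Of the 11 T cell markers, 9 were at least 2-fold higher in both than in tumour 1. The part of these cells in the difference was not tested.

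**Figure D1:**
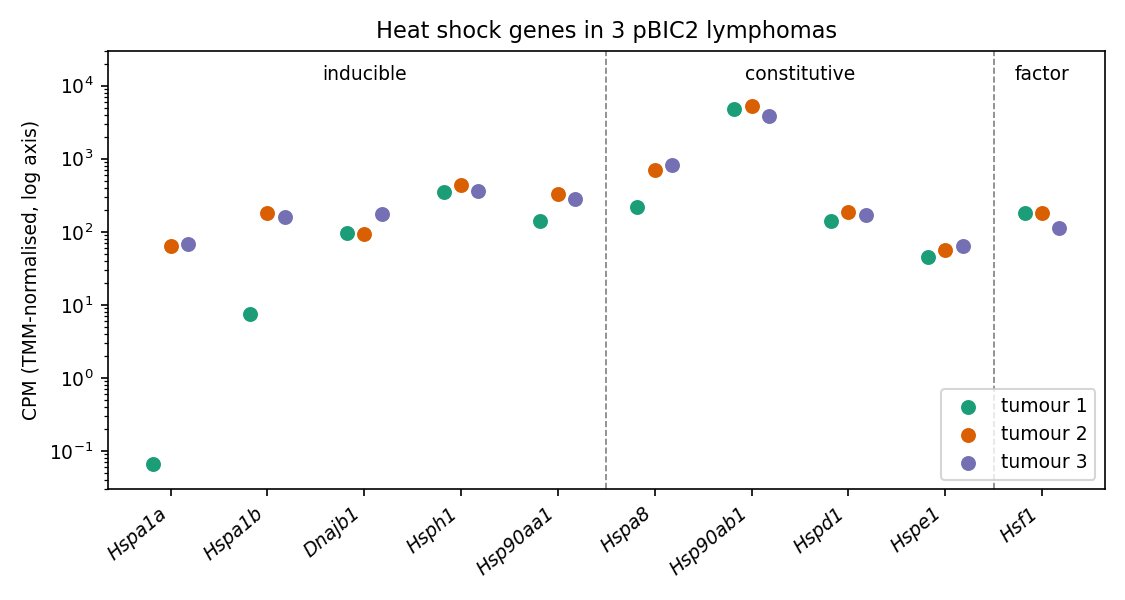
CPM of the 10 genes (log axis) in each of the 3 tumours, with 1 point per library and the inducible genes, the constitutive genes and the factor separated by dashed lines. Hspa1a at 0.0656 CPM and Hspa1b at 7.47 CPM in tumour 1 stand far below their values in tumours 2 and 3, while the points of Hsph1, Hspd1 and Hsp90ab1 lie close together.

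The division of reads within the pair also differed between the tumours. Hspa1a held 0.870% of the 115 counts of the pair in tumour 1 (exact Clopper-Pearson 95% interval 0.0220 to 4.75%), against 26.1% of 4002 counts in tumour 2 (24.7 to 27.5%) and 29.99% of 3918 counts in tumour 3 (28.6 to 31.5%). These intervals cover counting error only, and the pair was chosen for its low level in tumour 1. How well these counts can be separated was measured on the GENCODE transcripts, cut into all stretches of 50 bases, the read length. Of the stretches of Hspa1a, 58.8% also occurred in Hspa1b, and 33.7% occurred in no other gene of 141767 transcripts searched. For Hspa1b, 37.7% occurred in no other gene. The separable stretches lay mostly behind the coding sequence, where 94.5% of those of Hspa1a and 100% of those of Hspa1b were found in no other gene, against 12.9% and 17.7% within the coding sequence. How reads that fit both genes were treated is not given in the sources used here. The other counted genes that share at least 20 such stretches with the pair, Hspa1l and Gm10501, had 21, 30 and 10 counts together in tumours 1, 2 and 3. Gm20481, annotated on the opposite strand over 564 bases of Hspa1a, was not analysed here.

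The genes beside the pair were not low in tumour 1. Of the 12 nearest counted genes, 6 on each side, 8 passed the filter on low counts (filterByExpr of edgeR, which here asks for a minimum in all 3 libraries). Of the 8, 0 were lowest in tumour 1, beside 35.5% of all filtered genes. Their difference, given as log2 CPM in tumour 1 minus the mean of tumours 2 and 3, ran from 0.12 for Vars to 1.65 for Sapcd1, with a median of 0.74. All 8 were lowest in tumour 3, so their low values there enter these differences. C2, Neu1, Vwa7 and Sapcd1 were at least 2-fold lower in tumour 3 than in both others, as were 2.95% of all filtered genes. On the same scale Hspa1b was at -4.47 and Hspa1a at -8.45, a value that rests on 1 count and depends on the prior count of 2. At 9.71 kb from Hspa1a, Lsm2, a subunit of the U6 RNA-binding ring, was at 137, 105 and 63.7 CPM. At -20.5 kb, on the other side, Neu1, a lysosomal sialidase, was at 128, 128 and 46.2 CPM, and Vars, valyl-tRNA synthetase, at 28.8 kb, was at 2299, 3307 and 1344 CPM. Neu1 was equal in tumours 1 and 2, and Vars was highest in tumour 2. Ehmt2 (396, 385 and 312 CPM), a histone methyltransferase, and 1110038B12Rik (41.8, 37.4 and 22.0 CPM) were highest in tumour 1, and C2, Vwa7 and Sapcd1 were at 6.56, 14.1 and 11.3 CPM there and lower in the others. Hspa1l, the germ cell HSP70 that begins 547 bases from Hspa1a in the opposite orientation, had 11, 23 and 5 counts, and Slc44a4, Gm8696 and Gm10501 had at most 20 counts in any tumour.

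**Figure D2:**
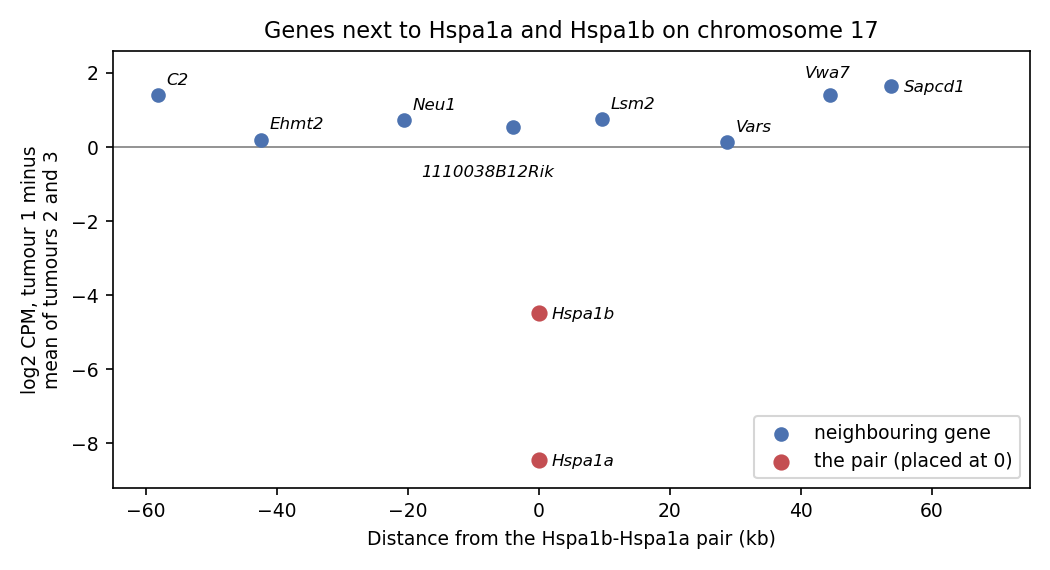
Difference in log2 CPM of tumour 1 from the mean of tumours 2 and 3 (vertical axis) against distance in kb from the pair (horizontal axis), for the 8 neighbouring genes that passed the filter and for Hspa1a and Hspa1b, which are placed at 0. The neighbours lie between 0.12 and 1.65, and the pair lies at -4.47 and -8.45. All 8 neighbours were lowest in tumour 3.

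The other inducible genes were not near absent in tumour 1. Dnajb1 (chromosome 8, 83608193 to 83612653) was at 97.3, 94.03 and 173 CPM, so tumour 1 equalled tumour 2 within counting error (ratio of tumour 2 over tumour 1 0.967, 95% interval 0.900 to 1.04) and tumour 3 stood above both. Hsph1, whose product exchanges the nucleotide of HSP70 (chromosome 5, 149614287 to 149636376), was at 349.6, 439.8 and 358 CPM, and tumours 1 and 3 could not be told apart (1.02, 0.987 to 1.06). Hsp90aa1, the inducible HSP90 (chromosome 12, 110690605 to 110702728), was lowest in tumour 1, at 142 CPM against 324 and 279 CPM. Its fold over tumour 1 was 2.29 in tumour 2 (2.18 to 2.41) and 1.97 in tumour 3 (1.87 to 2.07), on either side of the 2-fold limit used below. Dnajb1 and Hsph1 share few or none of their 50-base stretches with other genes (0.441% and 0.0%), while Hsp90aa1 shares 65.6%, and the 3 pseudogenes that hold most of these had at most 26 counts each.

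Hspa8, the constitutive HSP70, was also low in tumour 1. This gene (chromosome 9, 40800984 to 40810087) had 3336, 11370 and 14306 counts, or 219, 691 and 823 CPM, so that tumour 2 was at 3.16 times (95% interval 3.04 to 3.28) and tumour 3 at 3.76 times (3.62 to 3.91) the level of tumour 1. Tumours 2 and 3 differed by 1.19-fold. A near copy had counts that went the other way. Gm15459, annotated as a processed pseudogene of 1941 bases on chromosome 5 (5781615 to 5783555, ENSMUSG00000100801.1), holds 1642 of the 2345 stretches of 50 bases of the Hspa8 transcript. Its counts were 2635, 9 and 17, which is 44.1% of the sum of both rows in tumour 1 (Clopper-Pearson 95% interval 42.9 to 45.4%), 0.0791% in tumour 2 and 0.119% in tumour 3. With both rows added the level was 391, 691 and 824 CPM, and the folds over tumour 1 were 1.77 and 2.10. Of 7793 rows typed as pseudogenes, Gm15459 was the only row with more than 500 counts in tumour 1 and more than 20 times the counts of either other tumour, a limit set after its value was seen. Gm26825, a transcript annotated over the same place, was not analysed here. The 11 counted genes that share at least 20 stretches with Hspa8, Gm15459 included, summed to 2730, 83 and 123 counts. Whether the Gm15459 counts are reads of Hspa8 was not tested.

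**Figure D3:**
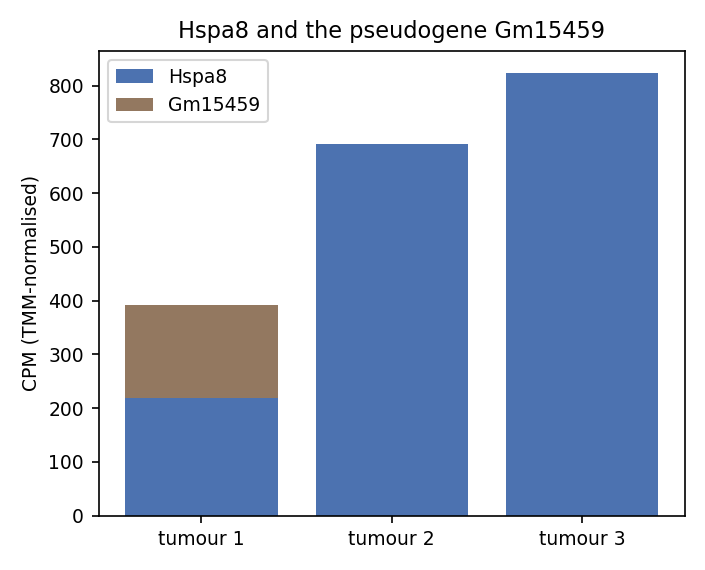
CPM of Hspa8 and of the processed pseudogene Gm15459, stacked, in each tumour (1 library each). The pseudogene is visible only in tumour 1, and the stack there reaches 391 CPM against 691 and 824 CPM.

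The remaining constitutive genes varied little. Hsp90ab1, the constitutive HSP90 (chromosome 17, 45567775 to 45573271), was at 4729, 5211 and 3822 CPM (mean 4587 ± 705, SD, n = 3), the 10th most abundant row of the tables, and was lowest in tumour 3. It lies on the same chromosome as the pair. Hspd1 (chromosome 1, 55077835 to 55088243) was at 143, 186 and 167 CPM, with tumour 2 at 1.30 times tumour 1 (95% interval 1.23 to 1.38). Hspe1, which is divergent from it (55088132 to 55091307), was at 45.6, 55.9 and 64.0 CPM, with tumour 3 at 1.40 times tumour 1 (1.27 to 1.54). Hspd1 and Hspe1 overlap by 112 bases on opposite strands. Of the stretches of Hspd1 44.8% occur in another gene, led by the pseudogene Hspd1-ps3, which had 3, 5 and 7 counts.

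Hsf1, the factor that drives the inducible genes (chromosome 15, 76477422 to 76501913), was not low in tumour 1. It was at 183, 180.3 and 113 CPM, so tumours 1 and 2 agreed within counting error (0.984, 95% interval 0.934 to 1.04) and tumour 3 was at 0.617 times tumour 1 (0.582 to 0.654). The part of the Hsf1 level in the difference of the pair was not tested. RNA does not report the activity of HSF1, which is set on the protein.

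On a scale per length Hsp90ab1 led in each tumour, at 1577, 1738 and 1274 CPM per kilobase of exon. This scale does not correct for sequence shared between genes. Of the 50-base stretches, 25.2% for Hspa8, 33.7% for Hspa1a and 37.7% for Hspa1b occurred in no other gene. The share was 95.5% for Hsp90ab1 and 100% for Hsph1. How reads that fit several genes were treated is not given, so levels of different genes, and shares between them, carry this limit. The order below Hsp90ab1 also depended on the length used. By the union of annotated exons, in tumours 2 and 3 Hspa8 (161 and 191) and Hsp90aa1 (82.5 and 71.0) came next. In tumour 1 Hspd1 (53.99), Hspa8 (50.8) and Hsph1 (48.1) followed, and Hspa1b and Hspa1a were last at 2.67 and 0.0221. By the length of the first GENCODE transcript of each gene, Hsph1 (108, 136 and 110.5) stood above Hspd1 (58.9, 76.7 and 69.0) and Hsp90aa1 (49.7, 114 and 97.8) in every tumour. In tumour 1 it was then followed by Hspa8 (91.3) and Hsf1 (90.8), and the pair was again last. The pair made up 5.02% of cytosolic HSP70 RNA per length (Hspa1a, Hspa1b and Hspa8) in tumour 1 against 34.7% and 29.2% in tumours 2 and 3. The share also depends on the length taken for Hspa8, 4301 bases as the union of its annotated exons against 2394 for its first transcript. By the first transcripts the share was 2.86%, 22.9% and 18.7%, and with the counts of Gm15459 added to Hspa8 it was 2.87% in tumour 1. The summed HSP70 level per length in tumours 2 and 3 was 4.60 and 5.05 times that in tumour 1, and 2.63 and 2.89 times with Gm15459 added to Hspa8. Hsp90aa1 held 2.23%, 4.53% and 5.27% of HSP90 RNA per length, and the ratio of Hspe1 to Hspd1 was 0.573, 0.540 and 0.686 by exon union but 1.001, 0.943 and 1.20 by the first transcripts.

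**Figure D4:**
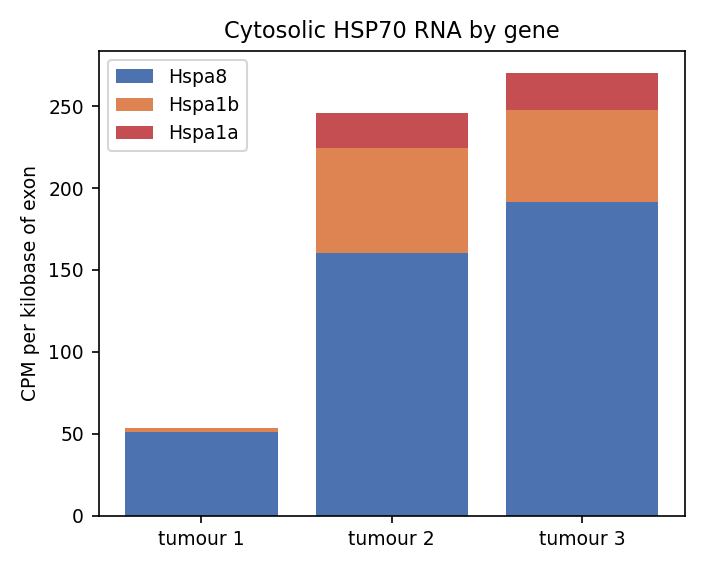
Cytosolic HSP70 RNA in CPM per kilobase of exon, stacked by gene, in each tumour (1 library each). In tumour 1 the stack reaches 53.5 and is almost all Hspa8, and in tumours 2 and 3 it reaches 246 and 270.3 with Hspa1b and Hspa1a as visible parts.

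By the SD of log2 CPM over the 3 tumours, Hspa1a (4.88) and Hspa1b (2.58) varied most, followed by Hspa8 (1.04), Hsp90aa1 (0.64), Dnajb1 (0.49) and Hsf1 (0.40), and Hspe1 (0.25), Hsp90ab1 (0.23), Hspd1 (0.19) and Hsph1 (0.18) varied least. The median SD was 0.64 over the 5 inducible genes and 0.24 over the 4 constitutive genes, beside 0.39 over 11273 genes that passed the filter. The inducible class holds Hspa1a and Hspa1b, for which the set was chosen, and without them its median was 0.49 over 3 genes. Of the 11273 genes, 0.0266% had a larger SD than Hspa1a, and 0.789% had a larger SD than Hspa1b. Hspa1a itself did not pass the filter, and its SD rests on 1 count in tumour 1. Both genes were picked for this difference, so their place among all genes is a description only. The filter removes genes that are low in 1 library, and the shares were 0.142% and 3.98% over 9885 genes chosen by a mean of 5 CPM or more. Hsph1, an inducible gene, varied less than 84.4% of the genes, and Hspa8, a constitutive gene, more than all but 9.64%. Without tumour 1 the medians were 0.15 for the inducible and 0.16 for the constitutive genes.

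At a limit of 2-fold, 3 of the 10 genes (Hspa1a, Hspa1b and Hspa8) were lower in tumour 1 than in both other tumours, and 0 were higher. Of all 11273 genes that passed the filter, 618 (5.48%) were lower in this way and 486 (4.31%) were higher. Hspa1a failed that filter through tumour 1, so the share was also taken over the 9885 genes with a mean of at least 5 CPM, which all 10 genes reached: 748 of them (7.57%) were lower in tumour 1. The genes were chosen with this difference in view, and the counts are a description only. Of the 10 genes, 7 were lowest in tumour 1, beside 35.5% of the filtered genes. With Gm15459 added to Hspa8 the count of genes past the 2-fold limit was 2. With total counts in place of TMM it was 4, since Hsp90aa1 then passed. None of the 10 genes was at least 2-fold lower or higher in tumour 2 or in tumour 3 than in both others, where 2.96% and 2.95% of all filtered genes were lower and 2.65% and 4.35% were higher. Over the 9885 genes, 4.25% were higher in tumour 1, 2.9% lower and 2.97% higher in tumour 2, and 2.91% lower and 5.02% higher in tumour 3. The median difference of tumour 1 (log2) was -0.39 over the 10 genes beside 0.00 over all filtered genes.

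Other genes of the heat shock network were taken from lists, some of which share members. Of all filtered genes, 5.48% were at least 2-fold lower in tumour 1 and 4.31% higher, the shares to set beside the counts below. Of 17 other heat-inducible targets of HSF1, 13 passed the filter and 0 of these were at least 2-fold lower in tumour 1, with a median difference of 0.04 and a median SD of 0.16 (log2). Stip1, the adaptor between HSP70 and HSP90, was at 307, 292 and 335 CPM, and Fkbp4, an HSP90 partner of steroid receptors, at 234, 136 and 157 CPM. Bag3, an HSP70 cochaperone of selective autophagy, was the 1 listed gene past the limit, with 7, 173 and 341 counts (0.459, 10.5 and 19.6 CPM). It failed the filter through tumour 1. Hspb1, which encodes HSP27, was high in tumour 2 only, at 1.84, 27.9 and 2.42 CPM.

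Partners of HSP70 and HSP90 were counted at the same 2-fold limit in tumour 1, beside 5.48% lower and 4.31% higher among all filtered genes. Beside these shares, the counts in lists of this size do not set the partners apart. Of 22 cochaperones, 21 passed, 1 was lower and 1 higher in tumour 1, and the median difference was 0.14. The lower gene was Tomm34, a cytosolic carrier of mitochondrial precursors (70.9, 157 and 197 CPM), and the higher gene was Fkbp5, an HSP90-bound regulator of steroid receptors (254, 24.3 and 73.6 CPM). Bag6 (439.99, 536 and 346 CPM) and St13 (374, 413 and 234 CPM) were the most abundant. Of 36 J domain proteins, 29 passed, 0 were lower and 1 was higher in tumour 1, Dnajc18 (56.9, 23.7 and 22.0 CPM). The most abundant were Dnajc7 (272, 272 and 317 CPM), Dnajc5 (155, 209 and 235 CPM) and Dnaja2 (186, 187 and 174 CPM). Dnajc12, which did not pass, had 4, 44 and 21 counts. Of 8 relatives of cytosolic HSP70 and HSP110, 6 passed, 0 were lower and 1 was higher, Hspa2 (46.7, 16.4 and 22.4 CPM). Hspa4 was at 354, 532 and 581 CPM, Hspa14 at 135, 97.5 and 119 CPM and Hspa12a at 84.6, 66.6 and 107 CPM.

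Chaperones of other compartments and folding machines showed no member past the limit in tumour 1. The counts were 0 of 14 for the CCT chaperonin and prefoldin (median difference -0.06), 0 of 15 for ER chaperones (-0.11) and 0 of 10 for mitochondrial chaperones and proteases (0.01), all of which passed the filter. Beside shares of 5.48% lower and 4.31% higher over all filtered genes, counts of 0 in lists of this size do not set these genes apart. Cct2 was at 738, 923 and 476 CPM, Cct5 at 554, 751 and 511 CPM and Tcp1 at 574, 638 and 358 CPM. Hspa5 (BiP), the HSP70 of the ER, was lowest in tumour 1, at 695 CPM against 1517 and 1262 CPM, whereas Hsp90b1, the ER form of HSP90, was at 1074, 1401 and 723 CPM and Calr at 1056, 1213 and 812 CPM. Hspa9, the HSP70 of mitochondria, ran the other way from Hspa8, at 996, 626 and 382 CPM. Afg3l2 was at 219.9, 141 and 99.3 CPM, and Yme1l1 at 148, 225 and 237 CPM.

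Small heat shock proteins were scarce. The counts and medians below cover few genes, and 5.48% of all filtered genes were at least 2-fold lower in tumour 1. Of 10, 3 passed (median difference -1.85), and 1 of them was lower in tumour 1, Hspb11 (2.49, 7.90 and 10.9 CPM), which is a part of the ciliary transport complex rather than a stress chaperone. Hspb6 was at 8.98, 3.58 and 6.33 CPM, and Cryaa had no count. Of the other heat shock factors and regulators of HSF1, 2 of 6 passed (median difference -1.27). Hsf2, a relative of Hsf1 that binds the same elements, was lower in tumour 1, with 17, 76 and 170 counts (1.11, 4.62 and 9.78 CPM), and Hsbp1, which encodes a binding protein of HSF1, was at 47.8, 42.6 and 58.9 CPM. Hsf2bp had 9, 59 and 8 counts and Hsf3 none.

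**Figure D5:**
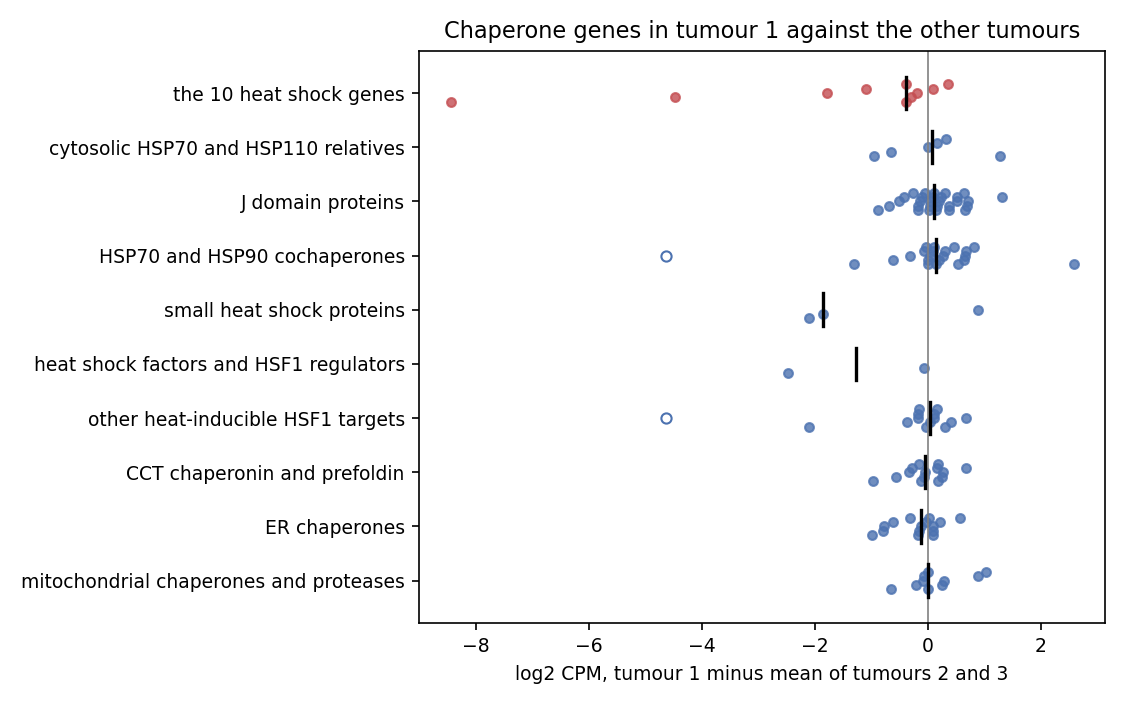
Difference in log2 CPM of tumour 1 from the mean of tumours 2 and 3 for the 10 heat shock genes (all shown) and for the members of 9 lists of chaperone genes that passed the filter, with 1 point per gene (Stip1, Hspb1 and others appear in more than 1 list), vertical bars at the medians and open circles for Bag3, which did not pass. The list medians lie near 0 except for the 3 small heat shock proteins and the 2 factors, and Hspa1a and Hspa1b lie at -8.45 and -4.47.

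Immediate early genes can, like Hspa1a and Hspa1b, be induced while tissue is dissociated. All 17 passed, with a median difference of -0.48 and a median SD of 0.66. At the 2-fold limit, 2 were lower in tumour 1 and 1 was higher, beside 5.48% and 4.31% of all filtered genes. The lower genes were Jun (133, 1147 and 726 CPM) and Socs3 (6.75, 21.7 and 51.3 CPM), and the higher gene was Nr4a1 (232, 47.7 and 113 CPM). Fosb, the most abundant, was at 1084, 1034 and 2207 CPM, and Ier5, a regulator of HSF1, was at 341, 564 and 402 CPM. In tumour 3, 4 of the 17 were at least 2-fold higher than in both others, beside 4.35% of all filtered genes. The part of cell handling in the levels of the heat shock genes was not tested. Among B cell markers, 3 of 10 were at least 2-fold lower in tumour 1, beside 5.48% of all filtered genes. They were Cd79b (513, 1327 and 1552 CPM), Ms4a1 (906, 2567 and 2278 CPM) and Ebf1 (98.2, 207 and 221 CPM). Ighm was at 5602, 6224 and 6058 CPM and Cd74 at 13709, 8238 and 4910.1 CPM.

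The genes whose profile over the 3 libraries was most like that of Hspa1b, by the Euclidean distance of centred log2 CPM among 9401 genes with a mean of at least 5 CPM (without predicted genes, pseudogenes and immunoglobulin and T cell receptor segments), were Zfp53, Zfp946, Fgl2, Ift57, Serpine2, Syne2, Bbx, Brwd1, Snx33 and Batf3, at distances of 0.12 to 0.31. Zfp53 had 11, 290 and 281 counts, and Fgl2, a secreted and membrane-bound fibrinogen-like protein, 42, 907 and 954. Within the set, Hspa8 ranked 374th, Hsp90aa1 676th and Hspa1a, which was lower still in tumour 1, 1893rd. Hsf1 ranked 6791st. A likeness over 3 libraries describes little more than low in tumour 1 and equal in tumours 2 and 3.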

How the data were processed

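The authors deposited raw counts per gene from polyA-selected RNA read single-end over 50 nt. The submitters' processing notes name mm10, featureCounts 1.6.0, STAR 2.5.2b and FastQC. For the annotation release, the strand setting and reads that fit several genes, nothing was given in the sources used. Every gene had a name.

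Counts were normalised by TMM in edgeR 4.0.16 (R 4.3.3; factors 0.979, 0.999 and 1.02) after filterByExpr. Log2 CPM used a prior count of 2. Positions and exon lengths came from GENCODE M21, to which 37536 of 37646 identifiers matched. Promoters came from RefSeq (GRCm38.p6), and 50-base stretches were compared on both strands with the GENCODE transcripts. Ratios between libraries have exact conditional binomial intervals. DESeq2 1.42.0 gave alternative size factors. Scripts ran in Python 3.11.15 with SciPy 1.17.1, NumPy 2.4.6 and pandas 2.3.3, and figures were drawn with matplotlib 3.10.9. The 2-fold call in tumour 1 and the ratio intervals were tried on simulated data that varied less between libraries than these. The other steps were not simulated.

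The labels give 1 group with 1 library per tumour, so no test between groups was made. The common biological coefficient of variation was 0.446. The members and lists were chosen with earlier results of these data known. Named were all members, the 3 most abundant genes of each list, up to 5 genes per list at least 2-fold from both others in tumour 1, the 6 nearest genes on either side of the pair, named copies, and the 10 genes nearest in profile to Hspa1b. Gm15459, Cryaa, Hsf3 and the genes nearly absent in tumour 1 were chosen once their values were known. Some genes that the rule names are not reported here.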

Additional observations from a re-analysis of the deposited data

How the results depend on the processing

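The difference of Hspa1a plus Hspa1b in tumour 1 from the mean of tumours 2 and 3 was -4.93 (log2 CPM), and it ran from -4.98 to -4.90 with DESeq2 size factors, total counts or a prior count of 0.5. It was -8.45 for Hspa1a alone and -4.47 for Hspa1b alone, and -4.99 and -4.88 when tumour 3 or tumour 2 was left out. Leaving out 1 tumour at a time moved the median SD of the inducible genes between 0.154 and 0.844 and that of the constitutive genes between 0.158 and 0.281, both lowest without tumour 1. Without a filter on low counts 2126 genes, in place of 618, were at least 2-fold lower in tumour 1, since 37646 genes then entered. The share of the pair in HSP70 RNA was 3.33%, 26.0% and 21.5% by counts without length, 2.86%, 22.9% and 18.7% by the length of the first transcript, and 2.87% in tumour 1 with Gm15459 added. The last 2 choices were made after seeing the data. The count of genes lower in tumour 1 ran from 2 to 4 over all alternatives. Other scalings moved the mean CPM of each gene by less than its SD. The scalings moved the median gene by 0.03 and -0.04. No paired analysis was possible because the labels give 1 group. At this depth 1 count of Hspa1a allows up to 5.57 counts.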

Other observations

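Hspa1a was 1 of 7 genes with at most 3 counts in tumour 1 and at least 20 CPM in both other tumours, limits set after the data were seen. The others were Afdn, a junction adaptor (3, 603 and 885 counts), Cdkn2a, the locus of the p16 and ARF tumour suppressors (2, 3447 and 1465), Dennd2a (2, 332 and 464), Gnb3 (0, 2048 and 595), Robo1, a guidance receptor (1, 1013 and 1790), and the ubiquitin ligase Trim32 (0, 331 and 351). Hspa1b, with 114 counts, was not among them. None of these other genes is on the lists of chaperones used here.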
